A study of Homo sapiens with 6 samples.

Results

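The loci of 8 genes that regulate the Hippo pathway (LATS2, LATS1, AMOTL2, AMOTL1, PTPN14, WWC1, FRMD6 and AJUBA) were examined in 3 peak lists from chromatin immunoprecipitation followed by sequencing (ChIP-seq). A peak was taken where it lay within 100 kb of the hg19 span of 1 of these genes, which gave 54 of 22804 peaks. These were 4 of 3867 YAP peaks, 28 of 9321 TEAD peaks and 22 of 9616 YAP5SA peaks. Within this set of genes, peaks were taken by position alone. The genes, lists and rules themselves were chosen with earlier results of these data known. Values set beside the whole lists or all bins below are therefore descriptions of a set that was not chosen blind. All libraries came from CClp1, a human cholangiocarcinoma cell line, with 1 library per group. The 3 groups used here were an antibody against endogenous YAP, an antibody against TEAD (TEAD1 in the series' design text), and Flag-Bio-YAP5SA, called YAP5SA here. YAP5SA is an introduced, tagged form of YAP in which serines that LATS kinases phosphorylate are replaced by alanine. The design text counts 3 YAP runs made with 2 antibodies, 1 of them a repeat, and which run gave the YAP list was not established. Control libraries (IgG, input DNA and BirA) were not analysed here, and no control level stands beside the values. With 1 library per group there is no replicate error, and no test between groups was made.

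In the Hippo pathway, the kinases LATS1 and LATS2 phosphorylate YAP, which keeps it out of the nucleus. YAP has no DNA-binding domain of its own and reaches chromatin mainly through TEAD transcription factors, which recognise the sequence GGAATG and its complement CATTCC. Several regulators of YAP are known to be transcribed in response to it, a negative feedback. The angiomotins AMOTL1 and AMOTL2 bind YAP and hold it at cell junctions. The phosphatase PTPN14 also binds YAP and promotes its retention in the cytoplasm. WWC1, also called KIBRA, and FRMD6, also called Willin, are scaffolds upstream of LATS, and AJUBA is a LIM-domain protein that restrains LATS activity.

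Stretches of promoter sequence are shown first for the 4 genes that had a TEAD and a YAP5SA peak at their start, described further on. RefSeq sequences on GRCh38.p14 were found for all 8 genes, in 11 windows of 300 bases that run from 250 bases before to 50 bases after a start. GGAATG was searched on both strands and occurred in 4 of the 11 windows, against 14.0% of all 35116 windows in that table. LATS2, AMOTL2, PTPN14 and AJUBA each had 1 match, and LATS1, AMOTL1, WWC1 and FRMD6 had none. The AJUBA match was in the window of the inner of its 2 starts, whereas its overlapping TEAD and YAP5SA peaks lay at the outer end of the gene. The window of the outer start had no match. The AP-1 motif TGANTCA, which does not overlap GGAATG in these windows, occurred in 1 of the 11, a LATS1 window, against 7.71% of all windows. All sequences are written on the strand of the gene (the minus strand in each), lower case, with the match in capitals. These are descriptions of promoter letters in GRCh38.p14, while the peaks are in hg19 and were not read as sequence.
LATS2, 30 bases across its start (GRCh38.p14 chr13:21061560-21061589), match from base 10 after the start: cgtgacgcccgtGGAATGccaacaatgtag
AMOTL2, 250 bases before the inner of its 2 starts (GRCh38.p14 chr3:134374448-134374697), match from base 69 before the start: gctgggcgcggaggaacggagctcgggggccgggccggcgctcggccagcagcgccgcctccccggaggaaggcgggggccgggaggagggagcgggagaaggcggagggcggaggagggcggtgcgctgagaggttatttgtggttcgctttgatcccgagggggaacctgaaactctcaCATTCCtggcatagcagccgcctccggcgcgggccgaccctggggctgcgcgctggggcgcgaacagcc
PTPN14, 250 bases before its start (GRCh38.p14 chr1:214551603-214551852), match from base 200 before the start: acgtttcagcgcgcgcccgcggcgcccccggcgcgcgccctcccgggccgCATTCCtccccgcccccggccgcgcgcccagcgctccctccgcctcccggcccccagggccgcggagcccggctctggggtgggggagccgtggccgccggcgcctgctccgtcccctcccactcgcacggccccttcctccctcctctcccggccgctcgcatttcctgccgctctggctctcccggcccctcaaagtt
AJUBA, 30 bases before the inner of its 2 starts (GRCh38.p14 chr14:22976884-22976913), match from base 59 before the start: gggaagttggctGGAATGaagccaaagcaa
AJUBA, 250 bases before the outer start (GRCh38.p14 chr14:22982552-22982801), no match in the window: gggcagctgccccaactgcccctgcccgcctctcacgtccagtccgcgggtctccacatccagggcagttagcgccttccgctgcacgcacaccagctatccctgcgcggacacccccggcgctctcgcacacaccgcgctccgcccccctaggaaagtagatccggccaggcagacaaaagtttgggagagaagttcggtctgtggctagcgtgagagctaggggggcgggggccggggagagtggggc

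TEAD peaks were found at 7 of the 8 loci, YAP5SA peaks at the same number, and YAP peaks at 4. The windows were 212 to 441 kb long, and of all 10295 bins of 300 kb on the chromosomes 36.1% held a TEAD peak, 56.2% a YAP5SA peak and 27.2% a YAP peak. Per length, the 2.51 Mb of the 8 windows held 11.1 TEAD peaks per Mb, against 2.98 per Mb over all chromosomes, a ratio of 3.73. The YAP5SA density was 8.75 against 3.1 per Mb, a ratio of 2.83, and the YAP density 1.59 against 1.23 per Mb, a ratio of 1.29. AMOTL2 and PTPN14 with 7 TEAD peaks each and AJUBA with 6 carried most of the TEAD signal. Of the 300 kb bins, 2.98% held 6 or more TEAD peaks. That cutoff equals the AJUBA count, and the PTPN14 window, at 404 kb, is longer than a bin. The share is therefore a description and does not show these counts to be unusual. The density ratio was highest for TEAD and lowest for YAP, and it rested on few loci for TEAD. These densities were not tested, and the YAP ratio rests on 4 peaks. The chromosome length and the bins count every base up to the last peak of a chromosome, with or without genes. Each of the 8 windows holds a gene, so the ratios and bin shares do not compare like sequence.

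**Figure D1:**
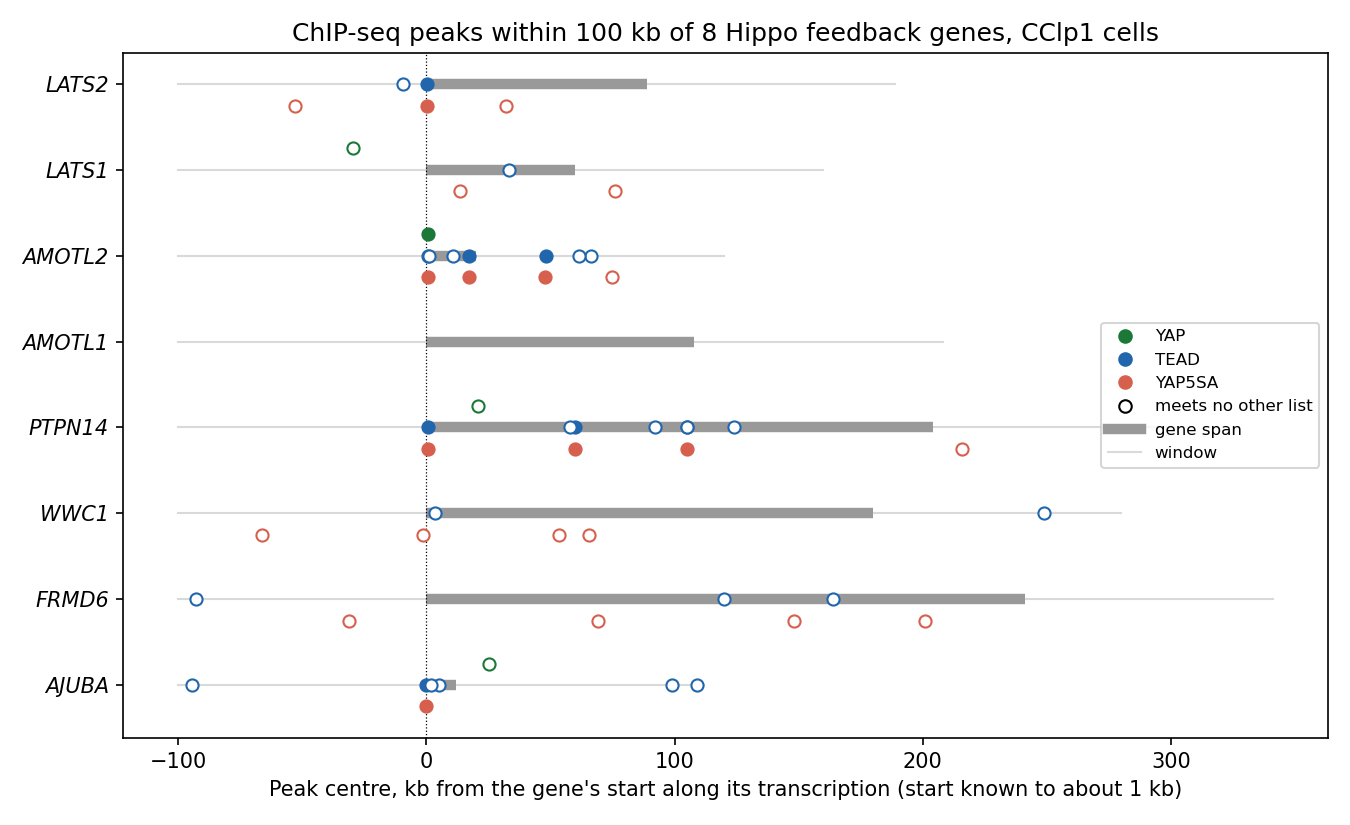
Positions of the 54 peaks by locus, in kb from the gene's start along its transcription, with YAP, TEAD and YAP5SA peaks in separate rows and filled points for peaks that overlap a peak of another list. The grey bar is the gene span and the thin line the window of 100 kb on each side. Filled points lie at LATS2, AMOTL2, PTPN14 and AJUBA, and AMOTL1 has no point.

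Each peak carries the authors' deposited score, which starts at 50 in each list and was read, from its range alone, as rising with the strength of the call. Scores are compared within a list and never between lists. Gene starts were taken from the spans in whole kb, so a start is known to about 1 kb, and a peak closer than that cannot be placed before or after it.

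Of the LATS kinases, LATS2 had a shared site at its start and LATS1 had none. The TEAD peak at LATS2 (chr13:21635602-21635921, hg19, 320 bp) scored 387, which places it in the top 6.97% of the TEAD list. A YAP5SA peak of 171 bp with a score of 67.9 (top 20.2% of its list) lay inside it (chr13:21635647-21635817). The centres were 29.5 bp apart. The centres lay 0.239 and 0.269 kb from the upper end of the span, where transcription of LATS2 starts, and the YAP list had no peak in the window. The nearest YAP peak to this TEAD peak was 826 kb away. A second TEAD peak (chr13:21645352-21645670) scored 167 and lay 9.51 kb before the start, with no partner. The other YAP5SA peaks of the window scored 52.1 and 68.5 and met no TEAD peak. The one of 68.5 (chr13:21688553-21688766) scored slightly above the shared YAP5SA peak.

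At LATS1 the 3 lists had peaks in different places. The TEAD peak (chr6:150005337-150005603) lay inside the gene, 33.5 kb from its start, with a score of 122. The YAP5SA peaks scored 57.9 (chr6:149963056-149963222) and 52.2, the nearer one 19.7 kb from the TEAD peak. The YAP peak (chr6:150068484-150068629) scored 109.7 and ranked 169th of 3867, the highest YAP score at any of the 8 loci. It lay 29.6 kb before the start of LATS1 and 62.9 kb from the TEAD peak, on the side where RefSeq places NUP43 and PCMT1 next to LATS1. No peak of any list lay within 2 kb of the LATS1 start.

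AMOTL2 had 3 sites shared by TEAD and YAP5SA, as many as PTPN14, and was the only locus where all 3 lists met. How often such shared sites also met a YAP peak over the whole lists was not counted. At its start the TEAD peak (chr3:134093106-134093537, 432 bp) scored 587, the YAP5SA peak (chr3:134093158-134093654, 497 bp) scored 219, and the YAP peak (chr3:134093195-134093675, 481 bp) scored 66.3. The 3 centres lay within 113.5 bp of each other. RefSeq gives AMOTL2 2 starts 970 bp apart, and the TEAD centre lay 0.679 kb from the outer end of the span used. The YAP5SA peak ranked 61st of 9616 and the TEAD peak 359th of 9321, whereas the YAP peak ranked 953rd of 3867, in the top 24.6% of its list. Endogenous YAP was therefore listed here, but not among its strongest sites.

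Beyond the start, AMOTL2 had 2 more shared sites on the downstream side. One lay inside the gene, 17.1 kb from the start, where YAP5SA (chr3:134076741-134076986) scored 94.9 and TEAD (chr3:134076845-134077018) 58.6. This YAP5SA peak stood in the top 3.9% of its list, while the TEAD peak was the only shared one with a score below the TEAD list's median of 76.2. The other lay 48.1 kb from the start, beyond the end of the gene, where TEAD (chr3:134045745-134046047) scored 338 and YAP5SA (chr3:134045817-134046090) 128.9. RefSeq places RYK as the next protein-coding gene on that side. TEAD peaks with no partner scored 244.57 at 10.9 kb, 225.93 at 66.5 kb, 84.3 at 1.28 kb (chr3:134092618-134092820) and 79.1 at 61.7 kb from the start. The remaining YAP5SA peak scored 66.9 and lay 7.93 kb from the nearest TEAD peak.

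AMOTL1, the other angiomotin, had no peak of any list in its window of 308 kb. Of the 300 kb bins, 25.1% likewise held no peak of any list. Within 200 kb of its span the counts were still 0 for YAP, TEAD and YAP5SA. The span used, 108 kb, is shorter than the 170 kb of the AMOTL1 gene in RefSeq.

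PTPN14 had 7 TEAD peaks, all inside the gene, and 3 of them met a YAP5SA peak. The TEAD peak at the start (chr1:214725027-214725502, 476 bp) scored 1008 and ranked 116th of 9321. The YAP5SA peak within it (chr1:214725139-214725301, 163 bp) scored 76.5, just outside the highest-scoring 10% of its list (top 10.4%). Further into the gene, 105 kb from the start, a TEAD peak of score 398.5 (chr1:214620820-214621182) contained a YAP5SA peak of score 66.5 (chr1:214620850-214621061, top 22.4%). A second TEAD peak of score 259 (chr1:214620322-214620760) lay beside it, 0.089 kb short of the YAP5SA peak. The third shared site was 59.8 kb from the start, where TEAD (chr1:214666030-214666352) scored 269 and YAP5SA (chr1:214666104-214666261) 54.3, with centres 8.5 bp apart. This YAP5SA peak ranked 6201st of 9616, with a score below its list's median of 57.

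The other TEAD peaks in PTPN14 scored 112, 83.1 and 54.6. The YAP list had 1 peak in the gene (chr1:214704861-214705084), with a score of 58.6, and it lay 19.9 kb from the nearest TEAD peak. The YAP list therefore marked none of the 3 sites that TEAD and YAP5SA shared in PTPN14. A further YAP5SA peak beyond the end of the gene scored 50.9, close to the lowest score listed.

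WWC1 and FRMD6, the upstream scaffolds, had TEAD and YAP5SA peaks but no shared site and no YAP peak. In the WWC1 window a YAP5SA peak (chr5:167717469-167717702) of score 77.13 lay 1.42 kb before the start. The nearest TEAD peak (chr5:167722523-167722715, score 77.4) lay 3.62 kb after the start, with 4.82 kb between the peaks. The other TEAD peak scored 52.6 and lay beyond the end of the gene, and the other YAP5SA peaks scored 52.2 to 70.9. WWC1 thus had peaks of both lists near its start that did not coincide.

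FRMD6 had 3 TEAD peaks, with scores of 69.4, 54.2 and 84.6, and 4 YAP5SA peaks, with scores of 53.6, 52.2, 81.4 and 57.0. The strongest YAP5SA peak (chr14:52104184-52104363) stood in the top 7.39% of its list and lay 15.6 kb from the strongest TEAD peak (chr14:52119962-52120159). No peak lay within 2 kb of the start used. RefSeq gives FRMD6 a length of 334 kb against the span of 241 kb, so other starts of this gene may lie away from the one used.

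AJUBA had the strongest TEAD peak of all 8 loci. It covered the start of the gene (chr14:23451853-23452346, 494 bp), scored 1155 and ranked 87th of 9321, in the top 0.944% of the list. The only YAP5SA peak of the window (chr14:23451860-23452311, 452 bp) coincided with it, scored 90.8 and ranked 429th of 9616. The centres were 14 bp apart. Inside the gene, TEAD peaks without a partner scored 66.8 at 1.93 kb (chr14:23449955-23450191) and 119.7 at 4.98 kb from the start (chr14:23446874-23447168). In RefSeq the 2 starts of AJUBA are 5709 bp apart. The sequence match printed above belongs to the inner one, while the strongest peak lay at the outer end of the gene. The TEAD peak at 4.98 kb lay close to the inner start, which was not used when peaks within 2 kb of a start were taken.

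The remaining TEAD peaks of the AJUBA window scored 51.6, 64.2 and 72.1 and lay 94.2 to 109 kb from the start. This window is rich in genes. RefSeq lists HAUS4 and PRMT5 as the nearest protein-coding genes on the side beyond the end of AJUBA, and C14orf93 and PSMB5 on the side of its start. The YAP peak (chr14:23426589-23426893) lay beyond the end of AJUBA, on the side of HAUS4, and had the lowest score in the YAP list, 50. Position alone does not assign such peaks to AJUBA.

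**Figure D2:**
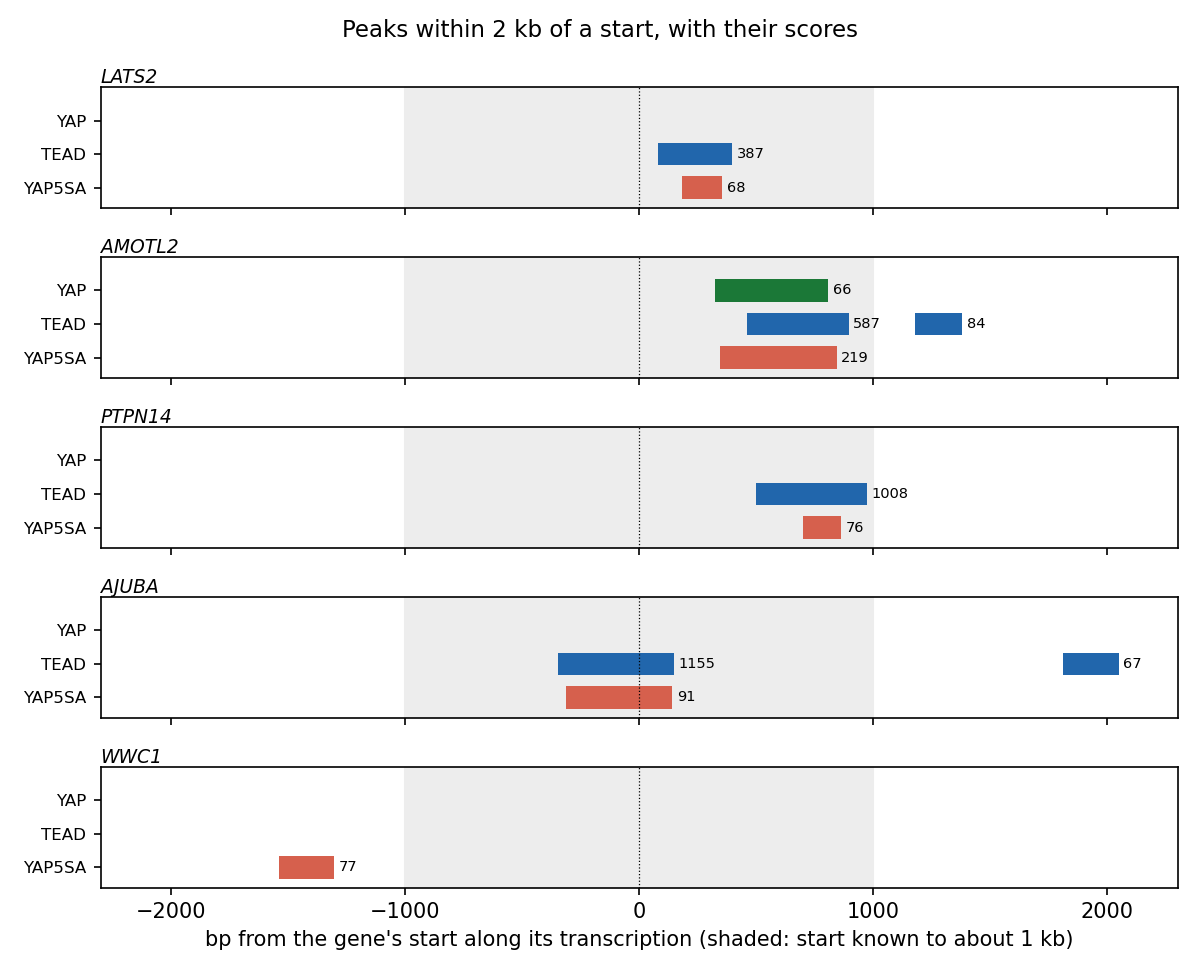
Peaks within 2 kb of the start at the 5 loci that had one, as bars from peak start to peak end in bp from the gene's start, with the authors' score beside each bar and 1 row per list. LATS2, AMOTL2, PTPN14 and AJUBA have overlapping TEAD and YAP5SA bars, AMOTL2 alone also a YAP bar, and WWC1 a YAP5SA bar only. The start is that of the gene span, so the inner AJUBA start is not drawn.

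Across the members, 8 TEAD peaks overlapped a YAP5SA peak by at least 1 bp: 3 at AMOTL2, 3 at PTPN14, 1 at LATS2 and 1 at AJUBA. That is 28.6% of the 28 TEAD peaks (exact Clopper-Pearson 95% interval 13.2 to 48.7, for counting error only), beside 5.49% of the whole TEAD list. From the other side it is 36.4% of the 22 YAP5SA peaks (17.2 to 59.3), beside 5.44% of the whole YAP5SA list. Peaks of 1 locus are neighbours and not independent, so the intervals are too narrow. They also take no account of the choice of genes, which was made with earlier results of these data known. A TEAD peak that meets a YAP5SA peak was found at 4 of the 8 loci, against 3.97% of the 300 kb bins. The loci of LATS1, WWC1 and FRMD6 held 6 TEAD peaks and 10 YAP5SA peaks in all, and 0 of them overlapped. For the 6 TEAD peaks that is 0% (interval 0 to 45.9), which does not stand apart from the 5.49% of the whole list. The lack of a shared site at these loci is therefore not shown to be a trait of them.

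Overlap with endogenous YAP was rare at these genes. Of the 28 TEAD peaks 1 met a YAP peak (3.57%), against 4.48% of the whole list. Of the 4 YAP peaks 1 met a TEAD peak, against 8.28% of all YAP peaks. Both counts are the site at the AMOTL2 start, and neither share stands apart from its background. Of the 8 sites shared by TEAD and YAP5SA, 1 held a YAP peak, and no whole-list share for such sites was computed. The YAP list is the shortest of the 3 and its depth is unknown, so a site missing from it was not detectable at the authors' threshold and is not shown to be unbound.

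Sharing went together with the TEAD score. The 8 TEAD peaks that met YAP5SA scored 58.6 to 1155 with a median of 393, and the 20 others 51.6 to 259 with a median of 81.1. The ranges overlap through the weak shared TEAD peak inside AMOTL2. All 6 member peaks among the highest-scoring 10% of the TEAD list, which begins at a score of 293, met a YAP5SA peak, against 31.8% of all TEAD peaks in that part. Of the 22 lower-scoring members 2 did (9.09%), against 2.57% of the list. Among YAP5SA peaks, those that met TEAD scored 54.3 to 219 with a median of 83.7, and the 14 others 50.9 to 81.4 with a median of 56.0. No test was made of these differences.

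The order of the shared sites differed between the lists. AJUBA and PTPN14 had the 2 highest TEAD scores at their starts, 1155 and 1008, whereas YAP5SA scored highest at the start of AMOTL2 and 48.1 kb downstream of it. Centres of overlapping peaks lay 8.5 to 113.5 bp apart, with a median of 45 bp, less than the fragment length of about 250 bp. Of the 8 shared sites 4 were at a start and 4 lay 17.1 to 105 kb from it. How often shared sites of the whole lists lie at a gene start was not counted, because no hg19 annotation was used. The count of 4 thus has no background beside it. The 4 at a start were also the strongest TEAD peak of their locus in each case.

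**Figure D3:**
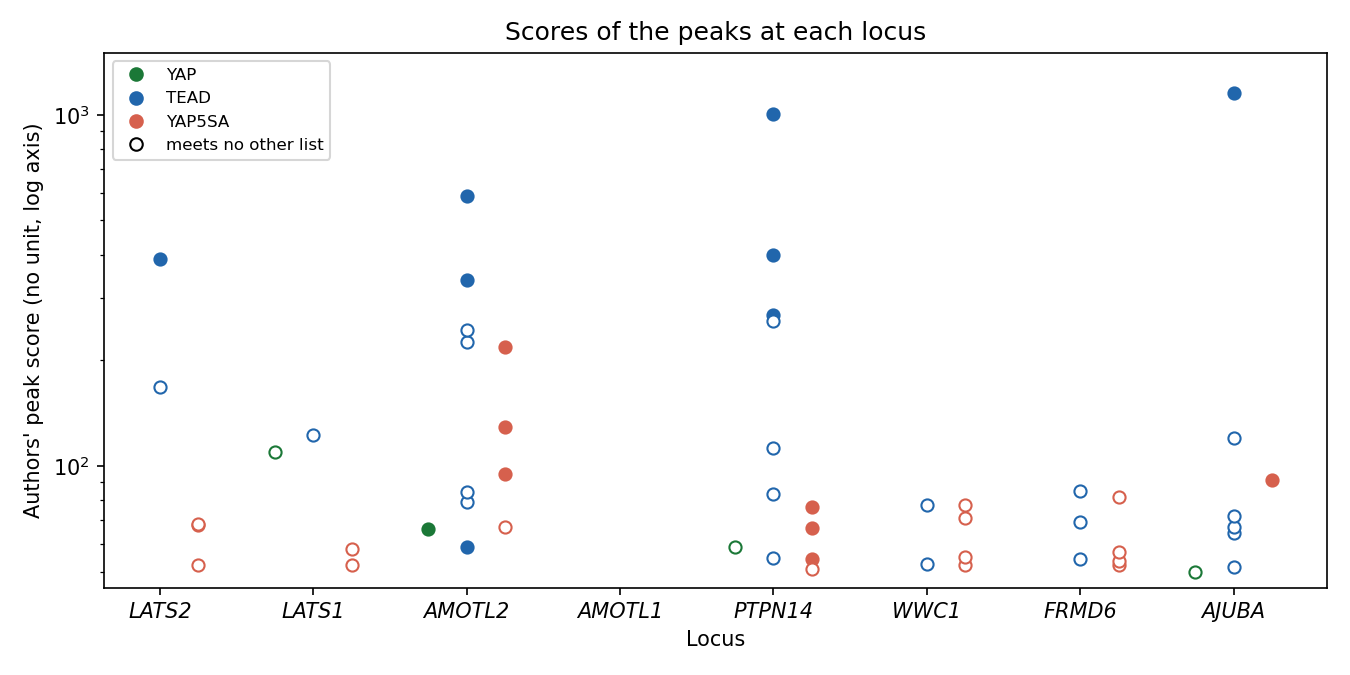
Authors' peak score on a log axis for each of the 54 peaks, by locus, with YAP, TEAD and YAP5SA peaks in separate columns and filled points for peaks that overlap another list. Scores are comparable within a list only. Filled TEAD points lie at the top of LATS2, AMOTL2, PTPN14 and AJUBA, with 1 at 58.6 in AMOTL2.

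**Figure D4:**
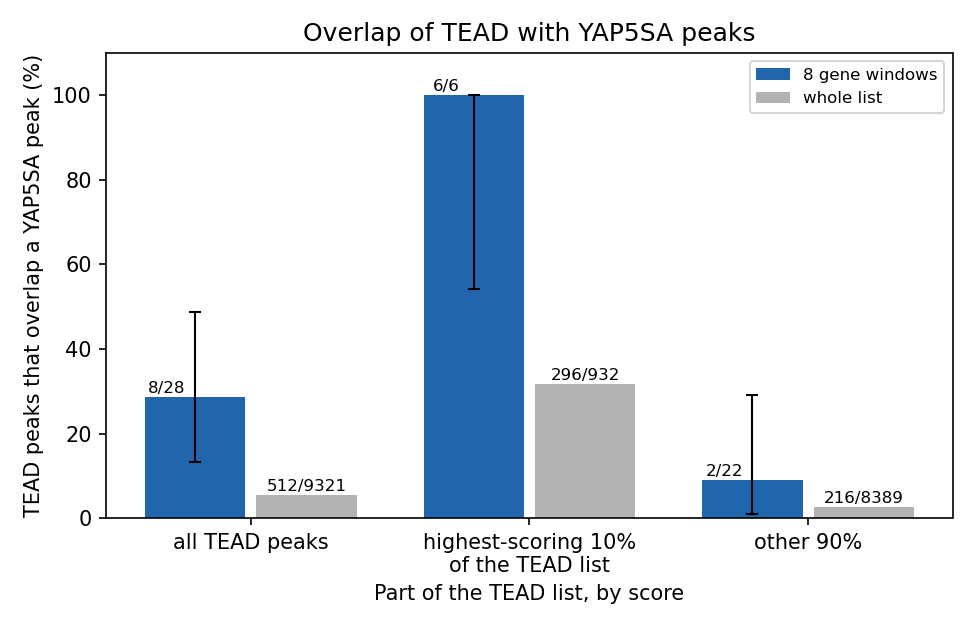
Percentage of TEAD peaks that overlap a YAP5SA peak, in the 8 gene windows and in the whole list, for all TEAD peaks and for the list split by score. Bars start at 0, numbers above them are peaks, and lines are exact 95% intervals for counting error. The member share is 28.6% for all peaks, 100% for the highest-scoring 10% (6 of 6) and 9.09% for the others.

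The 14 YAP5SA peaks without a TEAD partner lay 4.82 to 91.7 kb from the nearest TEAD peak, with a median of 42.5 kb. Over the whole list, the median was 199 kb for the 9070 such YAP5SA peaks on a chromosome or contig with a TEAD peak. The shorter distance at these loci goes with their higher density of TEAD peaks and was not tested. They were 120 to 261 bp wide, against 158 to 497 bp for the 8 that met TEAD. Such lone peaks were found at LATS2, LATS1, AMOTL2, WWC1, PTPN14 and FRMD6. Their density was not compared with the BirA control of the tagged protein, which was not used here.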

How the data were processed

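ChIP-seq was carried out in CClp1 cells after fixation in 1% formaldehyde for 10 min, per the labels' protocols, with fragments of about 250 bp. Per the submitters' processing notes, Bowtie2 and hg19 were used. Each deposited list gives positions, a name starting with MACS, and a score that was read from its range alone as 10 times the negative log10 of a p-value. For the peak caller, version, threshold and control are not stated in the sources used here. Read depth is unknown. A single list each was used for YAP, TEAD and YAP5SA, and whether runs were pooled before peak calling is not stated.

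Positions were read as half-open and are printed counted from 1, and 1 start below 0 was set to 0. Peaks within 100 kb of the 8 spans were taken. Peaks of different lists that overlapped by at least 1 bp were called shared. The 6 ordered overlap counts equalled those of bedtools 2.31.1, and the code recovered all 200 overlaps planted in simulated TEAD and YAP5SA lists. Background counts used all peaks and all whole bins of 300 kb up to the last peak of a chromosome. Described in full were the highest-scoring peak of each list at a locus, shared peaks, peaks within 2 kb of a start and peaks of the highest-scoring 10% of a list. The members, lists and rules were chosen with earlier results of these data known. Strands were taken as background knowledge, and those of the promoters from RefSeq. A list of other Hippo genes was not run because no hg19 annotation was used here. Python 3.11.15, pandas 2.3.3, scipy 1.17.1 and matplotlib 3.10.9 were used.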

Additional observations from a re-analysis of the deposited data

How the results depend on the processing

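For 9 counts, 69 values were recomputed under the alternatives, and 54 stayed within 1.5 times of the value reported. The span alone (0 kb) gave 2 YAP peaks at 2 loci and 14 YAP5SA peaks. With scores of at least 100, 1 YAP peak at 1 locus, 14 TEAD peaks and 2 YAP5SA peaks at 1 locus were left, 2 TEAD peaks overlapped a YAP5SA peak, 0 overlapped a YAP peak and 0 regions held all 3 lists. That setting removes peaks by its construction, since most YAP and YAP5SA scores are under 100. Without the AMOTL2 locus, 5 TEAD peaks overlapped a YAP5SA peak, 0 overlapped a YAP peak and 0 regions held all 3 lists, and without the PTPN14 locus 5 TEAD peaks overlapped a YAP5SA peak. These 2 loci tied for the most TEAD peaks. The overlap of TEAD with YAP5SA was 6 peaks with a reciprocal overlap of 50% and 8 with centres within 250 bp, within 50 kb and within 200 kb. Peaks of at most 1 kb changed no count. No paired analysis was possible because every group consists of a single library, and for that reason no replicate was omitted. Unknown depth limits what a missing peak shows, above all for YAP.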
